A study of Mus musculus with 2 samples.

Results

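The 10 genes described here encode the core of the mammalian circadian clock and some of its direct outputs: the activators Clock, Arntl (the gene of BMAL1) and Npas2, the repressors Per1, Per2, Per3, Cry1 and Cry2, and the outputs Dbp and Bhlhe41. They were chosen by symbol, and all 10 were found among the 32531 gene symbols of the count tables. The study sequenced RNA from translating ribosome affinity purification (TRAP), in which RNA is pulled down with ribosomes that carry a tag made in chosen cells. The mice were adults of the Stard5-EGFP/Rpl10a line JX5852, in which EGFP fused to ribosomal protein L10a is made under Stard5 regulatory sequence, and the tissue was dissected ventral striatum. All were untreated controls, and the labels name no other allele. The 2 libraries of the pulled-down fraction, replicates 1 and 2, form the only group, so neither a condition nor an input can be compared. Nothing in the labels tells if separate mice or pools gave the replicates. The p-values below measure only how these libraries differ beyond counting error, and such a difference may be technical. The labels give no hour of dissection.

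In the clock's feedback loop, CLOCK or its paralogue NPAS2 pairs with BMAL1 on E-boxes in DNA and drives the Per and Cry genes, whose proteins return to the nucleus and block the pair. DBP and BHLHE41 are made under the same control: DBP, a PAR bZIP factor, activates genes through D-boxes, while BHLHE41 (DEC2) competes at E-boxes and represses. NPAS2 is known for its expression in the forebrain, where it can take the place of CLOCK, and Per1 is also induced by neuronal activity and by glucocorticoids.

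The letters of an E-box, its variant or a D-box stood in the bases before the starts of 5 of the genes. RefSeq promoter windows of GRCm38.p6 were matched by symbol for 9 of the 10 genes, and Per2 had none. There were 13 windows, since some genes have several starts, and windows of the same gene can overlap. The 250 bases before each start were searched on both strands. The E-box CACGTG was found in 3 of the 13 windows, 1 each of Per1, Cry1 and Bhlhe41. It stood in 6.02% of all 32851 windows of the same length, and the other window of Per1 held none. The variant CACGTT, the E-prime box (AACGTG where it lies on the other strand), was found in 2 of the 13 windows, those of Cry1 and Cry2. It stood in 3.85% of all windows. The D-box TTANGTAA was found in 1 of the 13 windows, for Per3 alone among the 9 genes, at 2 places, and stood in 2.06% of all windows. The cAMP response element TGACGTCA was found in none of the 13 windows and in 1.55% of all. These 4 motifs share no site in the windows shown. Windows of Clock, Arntl, Npas2 and Dbp held none of them within these bases. Of the 5 windows with a match, those of Cry1, Cry2, Per1 and Bhlhe41 hold an E-box or E-prime box, and that of Per3 holds D-boxes alone. All 5 are shown, with the motif in capitals. They lie at chr10:85185055-85185304 (Cry1, minus strand), chr2:92434070-92434319 (Cry2, minus strand), chr11:69098699-69098948 (Per1, plus strand), chr4:151044666-151044915 (Per3, minus strand) and chr6:145865421-145865670 (Bhlhe41, minus strand), each written 5′ to 3′ along its gene.
Cry1: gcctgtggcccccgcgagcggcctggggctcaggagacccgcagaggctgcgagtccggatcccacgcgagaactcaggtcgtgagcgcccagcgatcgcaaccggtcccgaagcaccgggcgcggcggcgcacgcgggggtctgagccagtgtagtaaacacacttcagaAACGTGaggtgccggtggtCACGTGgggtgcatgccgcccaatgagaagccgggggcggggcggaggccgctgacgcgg
Cry2: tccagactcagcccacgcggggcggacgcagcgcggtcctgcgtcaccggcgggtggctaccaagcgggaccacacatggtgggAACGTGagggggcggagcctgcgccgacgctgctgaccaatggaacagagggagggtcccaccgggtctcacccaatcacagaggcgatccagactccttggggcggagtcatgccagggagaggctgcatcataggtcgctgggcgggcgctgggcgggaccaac
Per1: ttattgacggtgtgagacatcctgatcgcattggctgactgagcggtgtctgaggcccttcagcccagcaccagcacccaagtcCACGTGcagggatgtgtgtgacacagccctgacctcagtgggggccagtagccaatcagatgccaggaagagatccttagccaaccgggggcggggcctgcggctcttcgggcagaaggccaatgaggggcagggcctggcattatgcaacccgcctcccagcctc
Per3: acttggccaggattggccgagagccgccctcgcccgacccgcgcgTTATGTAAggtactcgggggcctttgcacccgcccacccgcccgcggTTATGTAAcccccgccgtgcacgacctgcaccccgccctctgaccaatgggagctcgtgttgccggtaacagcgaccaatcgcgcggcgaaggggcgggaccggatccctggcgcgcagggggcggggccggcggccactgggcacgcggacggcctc
Bhlhe41: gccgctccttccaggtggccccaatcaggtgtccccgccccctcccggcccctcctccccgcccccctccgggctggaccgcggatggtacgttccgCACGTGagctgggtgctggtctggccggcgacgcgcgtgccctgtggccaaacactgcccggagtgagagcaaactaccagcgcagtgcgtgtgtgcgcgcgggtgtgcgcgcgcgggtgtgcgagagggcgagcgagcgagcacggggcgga
In Cry1 the E-prime box begins 79 bases before the start and the E-box 60 bases before it. The E-box of Per1 begins 166 bases and that of Bhlhe41 153 bases before the start, and the E-prime box of Cry2 begins 166 bases before it. The D-boxes of Per3 begin 205 and 158 bases before the start. A match describes the letters only and shows neither binding nor a cause of the levels below.

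Reads assigned to genes numbered 25830282 in replicate 1 and 29574781 in replicate 2, and 12374 genes were detected at 1 CPM (1 read per 1000000 reads in genes) or more in both. In replicates 1 and 2 the driver gene Stard5 was at 166 and 54.9 CPM, and Rpl10a, whose native and transgene reads cannot be separated, was at 99.5 and 57.5 CPM. Markers of spiny projection neurons, the output neurons of the striatum, were all detected (13 of 13), with Gnal and Pde10a the highest at 2482 ± 281 and 1925 ± 67.6 CPM (SD, n = 2). Markers of other cells were present too. In replicate 1 and replicate 2 their summed levels were 910 and 3032 CPM for 8 astrocyte markers and 850 and 1311 CPM for 7 oligodendrocyte markers. They were 60.0 and 145 CPM for 4 oligodendrocyte precursor markers, 176 and 126 CPM for 6 microglia markers, and 24.5 and 26.5 CPM for 5 endothelial and mural markers. The sums for 6 GABAergic and 4 cholinergic interneuron markers were 106 and 159.8 CPM and 88.8 and 119 CPM. Clock genes are used by most cells, so their reads cannot be assigned to a cell type here, and fewer cells of a type and less RNA per cell cannot be told apart.

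All 10 clock genes were detected in both libraries, and 9 of them stood above 20 CPM in each. Clock, a bHLH-PAS activator, had 5330 reads in replicate 1 and 7645 in replicate 2, which is 206 CPM (exact Poisson 95% interval 201 to 212) and 258 CPM (253 to 264). Npas2, which encodes the paralogue of CLOCK, had 5250 and 4290 reads, or 203 CPM (198 to 209) and 145 CPM (141 to 149). Clock was thus lower and Npas2 higher in replicate 1 than in replicate 2, with no overlap of the intervals. Arntl, the gene of their shared partner BMAL1, had 529 and 667 reads, or 20.5 CPM (18.8 to 22.3) and 22.6 CPM (20.9 to 24.3), and its intervals overlapped. Intervals cover counting error only, and most genes differed beyond it. Of all detected genes, 78.8% had an adjusted p below 0.05 between the libraries at any fold (exact binomial test, described below).

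Among the repressors, Per1 had 2276 reads in replicate 1 and 1659 in replicate 2, or 88.1 CPM (84.5 to 91.8) and 56.1 CPM (53.4 to 58.9). Per2, a light- and hormone-responsive partner, went the other way, at 868 and 1332 reads, or 33.6 CPM (31.4 to 35.9) and 45.0 CPM (42.7 to 47.5). Per3, the period gene least needed for rhythm in mice, had 949 and 887 reads, or 36.7 CPM (34.4 to 39.2) and 30.0 CPM (28.1 to 32.0). Per1 and Per3 were thus higher and Per2 lower in replicate 1 than in replicate 2. Cry1, the stronger repressor of the cryptochromes, had 1741 and 1654 reads, or 67.4 CPM (64.3 to 70.6) and 55.9 CPM (53.3 to 58.7). Cry2 had 3365 and 3479 reads, or 130.3 CPM (126 to 135) and 118 CPM (114 to 122). Both cryptochrome genes were slightly higher in replicate 1, and the intervals of the libraries overlapped for none of the 5 repressors. Among all detected genes, 78.8% also differed between the libraries at adjusted p below 0.05 and any fold (exact binomial test).

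Of the outputs, Bhlhe41 had 3865 reads in replicate 1 and 3284 in replicate 2, or 149.6 CPM (145 to 154) and 111 CPM (107 to 115). Dbp had 48 and 32 reads, or 1.86 CPM (1.37 to 2.46) and 1.08 CPM (0.740 to 1.53). The intervals of the libraries overlapped for Dbp and not for Bhlhe41, and the lower bound of Dbp in replicate 2 lies under the 1 CPM used for detection.

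**Figure D1:**
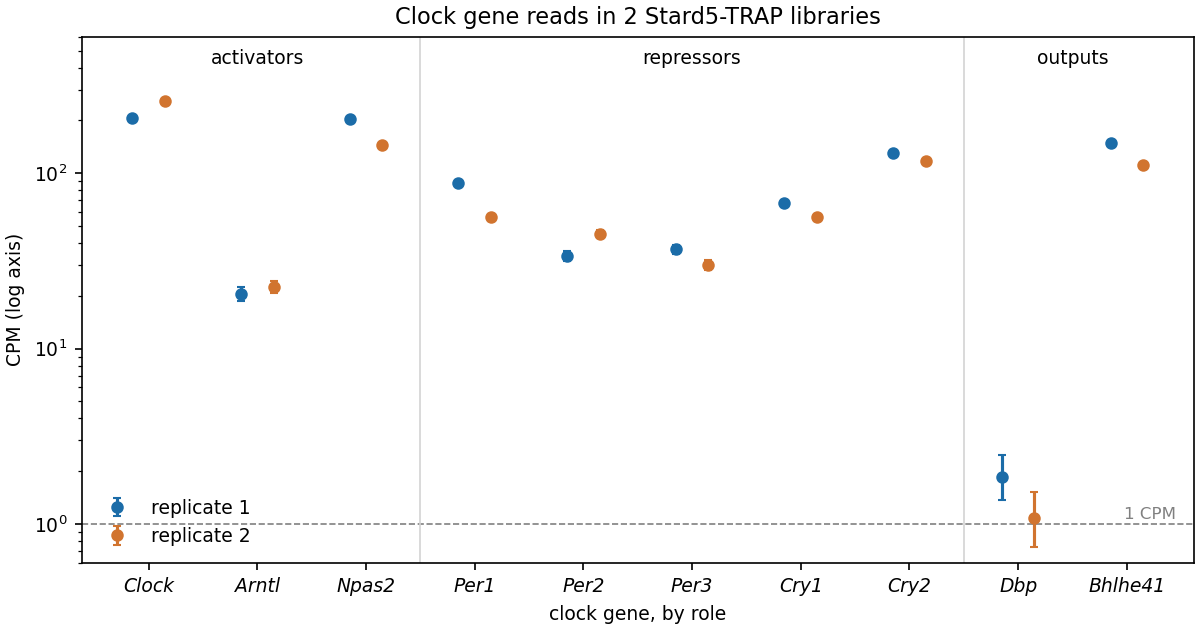
Level of each clock gene in CPM (log axis) in replicates 1 and 2, ordered by role, with exact Poisson 95% intervals from the reads and the 1 CPM line used for detection. Every gene except Dbp lies above 20 CPM, and Dbp lies at 1.86 and 1.08 CPM.

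Levels of different genes were compared per kilobase of annotated exon, because longer transcripts give more reads. On this scale Npas2 was the highest, at 42.4 CPM per kilobase in replicate 1 and 30.3 in replicate 2 (mean 36.4 ± 8.59, SD, n = 2), at percentile 91.5 of the 11465 detected genes with a length. Next came Cry2 at 19.6 ± 1.41, Bhlhe41 at 19.4 ± 4.06, Cry1 at 18.5 ± 2.43 and Clock at 16.9 ± 2.69 CPM per kilobase, between percentiles 79.7 and 82.5. Per1 followed at 12.8 ± 4.02 and Per2 at 6.71 ± 1.38, both above the median of all genes, 5.31 CPM per kilobase. Per3 at 3.47 ± 0.497 and Arntl at 2.86 ± 0.195 lay below that median, and Dbp at 0.491 ± 0.183 lay at percentile 3.52. A step between neighbours in this order was called larger than the spread where its mean log2 difference exceeded its SD over the 2 libraries, which held for 4 of 9 steps. They were Npas2 over Cry2 (0.87 ± 0.24 log2 units per kilobase), Per1 over Per2 (0.91 ± 0.76), Per2 over Per3 (0.94 ± 0.51) and Arntl over Dbp (2.59 ± 0.65). The step of Per2 over Per3 depends on the lengths and was within its SD with other ones, as given below. From Cry2 through Bhlhe41, Cry1 and Clock to Per1, and from Per3 to Arntl, no step between neighbours exceeded its SD; genes further apart in the order were not compared by this rule. With 2 libraries, the smallest p a permutation test can give is 0.5, so no test was made of these steps. The rule is weak, since an SD of 2 values is itself uncertain and the genes were sorted by the same values. It is used below for differences between members too.

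**Figure D2:**
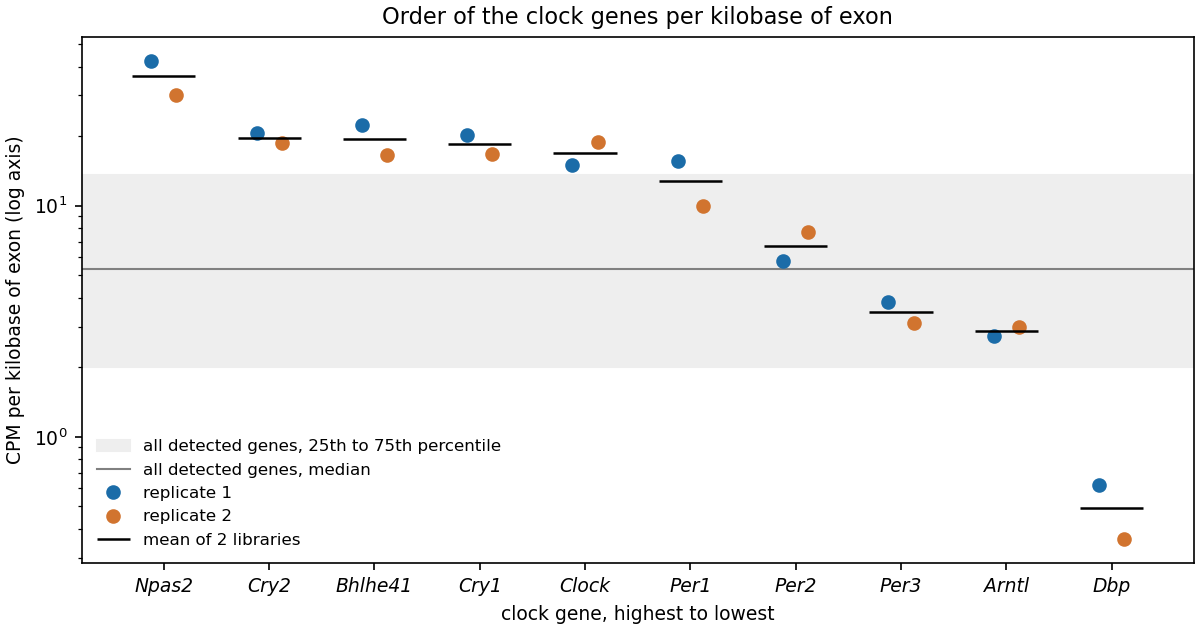
Level of each clock gene in CPM per kilobase of exon (log axis), in the order of the mean log2 level, with replicates 1 and 2 as points and their mean as a bar. The grey band spans the 25th to 75th percentiles of the 11465 detected genes with a length and the grey line is their median of 5.31. Npas2 stands above the other members in both libraries and Dbp below them.

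Within each library, partners of the loop could be set against each other. Npas2 exceeded Clock per kilobase by 1.497 log2 units in replicate 1 and 0.69 in replicate 2 (mean difference 1.09 ± 0.57, SD, n = 2), a 2.13-fold mean difference. This order rests on the exon lengths, 4.791 kilobases for Npas2 and 13.727 for Clock: in CPM without a length, Npas2 minus Clock was -0.43 ± 0.57 log2 units. Npas2 gave 49.6% of the pair's reads in replicate 1 (exact Clopper-Pearson 95% interval 48.7 to 50.6), but 35.9% in replicate 2 (35.1 to 36.8). Both stood above Arntl per kilobase in both libraries, Npas2 by 3.65 ± 0.44 and Clock by 2.56 ± 0.13 log2 units. Per kilobase, Npas2 made up 70.5% of the 3 activators' summed level in replicate 1 and 58.1% in replicate 2, Clock 24.98% and 36.1%, and Arntl 4.52% and 5.75%.

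Among the Per genes, Per1 exceeded Per2 per kilobase by 1.45 log2 units in replicate 1 and 0.37 in replicate 2 (mean 0.91 ± 0.76), and exceeded Per3 by 2.03 and 1.67 (1.85 ± 0.25). Per3 stood below Per2, by -0.59 and -1.30 log2 units per kilobase (Per3 minus Per2, mean -0.94 ± 0.51). With the longest annotated transcript as the length this difference was -0.27, and with no length -0.23, both within the SD of 0.51. Per1 made up 62.1% of the summed Per level per kilobase in replicate 1 and 48.0% in replicate 2, Per2 22.8% and 37.0%, and Per3 15.2% and 15.03%. The share of Per3 was nearly the same in both libraries, while that of Per1 was higher and that of Per2 lower in replicate 1. Cry2 exceeded Cry1 per kilobase by 0.03 and 0.15 log2 units, a small difference whose mean barely passed its SD (0.092 ± 0.086), and with the longest annotated transcript as the length the difference was 0.62. Its size therefore depends on the annotation.

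Summed per kilobase, the Per genes were set against the activators, and the Cry genes against the Per genes. The 3 Per genes together stood at 25.2 CPM per kilobase in replicate 1 and 20.8 in replicate 2, against 60.2 and 52.1 for Clock, Arntl and Npas2 together, a log2 difference of -1.26 and -1.33 (mean -1.29 ± 0.05, SD, n = 2). The 2 Cry genes together stood at 40.8 and 35.4 CPM per kilobase, above the summed Per genes by 0.69 and 0.77 log2 units (0.73 ± 0.05). Both the means and the SD between the libraries depend on the lengths. Summed Per minus activators was -1.35 ± 0.11 log2 units with the longest transcript and -1.57 ± 0.18 with no length. Summed Cry minus summed Per was 0.90 ± 0.08 log2 units with the longest transcript and 0.36 ± 0.06 with no length.

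Dbp stood far below every other member. Per kilobase, Dbp minus Bhlhe41 was -5.16 log2 units in replicate 1 and -5.51 in replicate 2 (mean -5.34 ± 0.25). DBP has close relatives in TEF and HLF, PAR bZIP factors that bind the same D-box, and their genes stood at 226 and 155 CPM (Tef) and 475 and 358 CPM (Hlf) in replicates 1 and 2. Dbp minus Tef was -5.65 ± 0.17 and Dbp minus Hlf -7.03 ± 0.26 log2 units per kilobase, pairs chosen after the values were seen. Of the exon bases of Dbp (chromosome 7, 45705088 to 45710203, plus strand), 18.0% overlap Sphk2 on the other strand, which was itself at 14.4 and 16.4 CPM. With no strand setting stated, reads in such bases may be counted for neither gene. The longest Dbp transcript is 61.6% G and C, against a median of 49.2% over the 11465 genes. The 460 detected genes within 2 points of that content had a median of 3.42 CPM per kilobase, against 5.31 for all, and Dbp stood at 0.491. The part of overlap and base content in the level of Dbp was not tested.

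The other members lie at these places in GRCm38 by GENCODE M21: Clock on chromosome 5 from 76209868 to 76304792, Npas2 on chromosome 1 from 39193731 to 39363236, and Arntl on chromosome 7 from 113207465 to 113314126. Per1 lies on chromosome 11 from 69095217 to 69109960, Per2 on chromosome 1 from 91415982 to 91459324, and Per3 on chromosome 4 from 151003652 to 151044665. Cry1 lies on chromosome 10 from 85131700 to 85185064, Cry2 on chromosome 2 from 92403646 to 92434043, and Bhlhe41 on chromosome 6 from 145858243 to 145865558. Exons of other genes overlap 19.0% of the exon bases of Bhlhe41, 4.67% of those of Cry2 and 0.439% of those of Arntl. No annotated exon overlaps those of Clock, Npas2, Per1, Per2, Per3 or Cry1.

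No clock gene had a ratio of 2-fold or more between the libraries. The 95% interval of Dbp, 0.08 to 1.45 log2 units, reached past 2-fold. For each gene, a 2-sided exact binomial test set its reads in replicate 1 against those in replicate 2, given library sizes after TMM scaling (edgeR's trimmed mean method), with Benjamini-Hochberg adjustment over the 12374 detected genes. It says how these 2 libraries differ beyond counting error, not how conditions differ. A gene was called where its adjusted p was below 0.05 and its ratio 2-fold or more: 0 of 10 clock genes were called, against 17.4% of all genes (7.78% higher in replicate 1 and 9.57% higher in replicate 2). At that adjusted p and any fold, 9 of 10 passed, against 78.8% of all genes, and 9 of 10 had an unadjusted p below 0.05. Arntl was the member that did not pass, at a log2 ratio of -0.17 (replicate 1 over replicate 2, 95% interval -0.33 to 0.0017; exact binomial test, adjusted p = 0.0657).

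The members went both ways. Of the 10, 7 had a ratio above 0, that is higher in replicate 1, and 3 below. Per1 had a log2 ratio of 0.63 (95% interval 0.53 to 0.72; exact binomial test, adjusted p = 8.91e-41) and Npas2 of 0.46 (0.40 to 0.52; adjusted p = 1.39e-53). Bhlhe41 stood at 0.40 (0.34 to 0.47), Per3 at 0.27 (0.13 to 0.40), Cry1 at 0.24 (0.15 to 0.34) and Cry2 at 0.12 (0.05 to 0.19). Dbp had the widest interval, 0.75 (0.08 to 1.45; adjusted p = 0.0355). On the other side, Per2 stood at -0.45 (-0.57 to -0.32; exact binomial test, adjusted p = 1.96e-12) and Clock at -0.35 (-0.40 to -0.30; adjusted p = 6.45e-42). The median of the members was 0.26, and their median without sign 0.38, against 0.00 and 0.45 over all detected genes. Over all genes the ratio changed with exon length, by -0.21 log2 units per doubling, and with that trend removed Clock stood at -0.0015 and Arntl at -0.00084, neither below the threshold at any fold (exact binomial test, adjusted p = 0.972 and 1), while Per2 stood at -0.36 and Per1 at 0.70. Dbp also no longer passed, at 0.63 (exact binomial test, adjusted p = 0.0826).

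**Figure D3:**
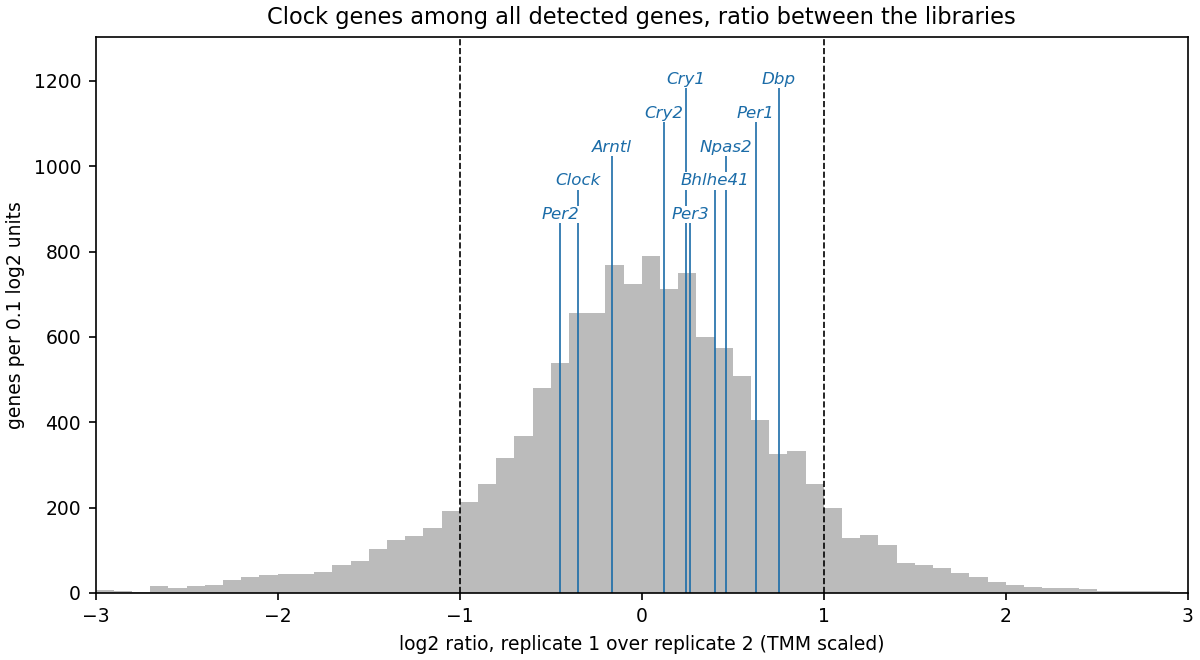
Distribution over all detected genes of the TMM-scaled log2 ratio of replicate 1 over replicate 2 (grey bars, genes per 0.1 log2 units, shown from -3 to 3), with each clock gene as a labelled line and dashed lines at a 2-fold ratio. All 10 members lie inside the dashed lines, from -0.45 for Per2 to 0.75 for Dbp. Of all detected genes, 17.4% were called at 2-fold or more.

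Genes that work beside the loop were measured in the same libraries. Of the secondary loop and output regulators, 11 were detected in both libraries. Hlf and Tef led this list, followed by Nr1d2, a haem-sensing repressor of Arntl also called REV-ERB beta, at 104 ± 5.89 CPM and Rora, an activator of Arntl, at 95.6 ± 28.4 CPM (SD, n = 2). Nfil3, a bZIP repressor at D-boxes, was the lowest detected at 2.64 ± 0.202 CPM. Between the libraries, 1 of 11 was called in each direction, near the share of all genes (7.78% higher in replicate 1 and 9.57% higher in replicate 2). Higher in replicate 1 was Arntl2, a paralogue of Arntl, at 4.99 and 2.27 CPM in replicates 1 and 2 (log2 ratio 1.11), and higher in replicate 2 was Rorb, another ROR receptor gene, at 14.4 and 59.1 CPM (-2.07). The median ratio of this list was 0.10.

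Enzymes that set the speed of the clock by marking PER and CRY proteins were all detected (9 of 9). Of these kinase and turnover genes, 0 of 9 passed the 2-fold test, against 17.4% of all genes, while 9 of 9 passed at any fold, against 78.8%, and 9 of 9 had an unadjusted p below 0.05 (exact binomial test). They had ratios from -0.40 to 0.59 and a median of -0.12, or 0.15 without sign against 0.45 over all genes. Gsk3b, a kinase of several clock proteins, stood at 1232 ± 32.6 CPM, and the F-box genes Btrc and Fbxw11, whose products mark PER for destruction, at 179 ± 17.2 and 143 ± 6.69 CPM. Csnk1a1, of the casein kinase family, was at 149 ± 7.02 CPM, and the lowest was Fbxl21, an F-box gene acting on CRY, at 24.7 ± 7.28 CPM.

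Per1 shares inducers with the immediate early genes and with glucocorticoid targets, so both lists were read beside it. Of 13 detected immediate early genes, 5 were called with more in replicate 1, against 7.78% of all genes, and 0 with more in replicate 2, against 9.57%. Their median log2 ratio was 0.73. They were Egr1 at 486 CPM in replicate 1 and 194 in replicate 2, Fosl2 at 73.6 and 35.7, Egr2 at 16.7 and 3.55, Fos at 9.33 and 1.69, and Npas4 at 8.67 and 3.11. Of the 13 immediate early genes, 12 had a ratio above 0 and 1 below. Of the 10 clock genes, 7 had a ratio above 0 and 3 below, with Per2 at a log2 ratio of -0.45. Per1 was among the 7, at 88.1 and 56.1 CPM, but under 2-fold. Dusp1 and Fosb, also under 2-fold, stood at 29.5 ± 12.7 and 26.1 ± 2.88 CPM, Junb was the lowest detected at 3.19 ± 1.12 CPM, and Ier2 had 0 reads in both. Of 11 clock-controlled and glucocorticoid-induced genes, all detected, 0 were called with more in replicate 1 and 1 with more in replicate 2, Tsc22d3 at 17.8 and 40.8 CPM (log2 ratio -1.23). Klf9, Nampt, Sgk1 and Usp2 led that list, at 214 ± 58.3, 113 ± 10.7, 92.3 ± 11.99 and 76.0 ± 1.70 CPM, Nfkbia was the lowest at 3.20 ± 1.40 CPM, and the median ratio was -0.04. The part of these inducers in the level of Per1 was not tested.

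Markers of cell types also moved between the libraries. Over all detected genes, 7.78% were called with more in replicate 1 and 9.57% with more in replicate 2. Of 8 astrocyte markers, 0 were called with more in replicate 1 and 6 with more in replicate 2. Their median ratio was -1.73, with Slc1a2 at 741 and 2496 CPM and Aldoc at 80.8 and 225 CPM. Of 7 oligodendrocyte markers, 0 were called with more in replicate 1 and 2 with more in replicate 2, and their median was -0.73. The medians were also below 0 for the 3 detected precursor markers (-0.98), the 4 detected GABAergic interneuron markers (-0.52) and the 4 cholinergic ones (-0.60), with 1 precursor and 1 cholinergic marker called with more in replicate 2. Spiny neuron markers had a median of 0.33, with 1 of 13, Tac1, called with more in replicate 1, near the 7.78% of all genes. Medians above 0 were also found for 6 microglia markers (0.60) and the 4 detected endothelial and mural markers (0.61), with 1 of each called with more in replicate 1. The endothelial and mural list was split, with 3 ratios above 0 and 1 below, Rgs5 at -0.98. Its summed level was 24.5 CPM in replicate 1 and 26.5 CPM in replicate 2. Clock, Per2 and Arntl had ratios below 0 and the other 7 members above 0, all 10 within a 2-fold ratio, and with the length trend removed Clock and Arntl stood at about 0. The part of cell makeup in these ratios was not tested.

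**Figure D4:**
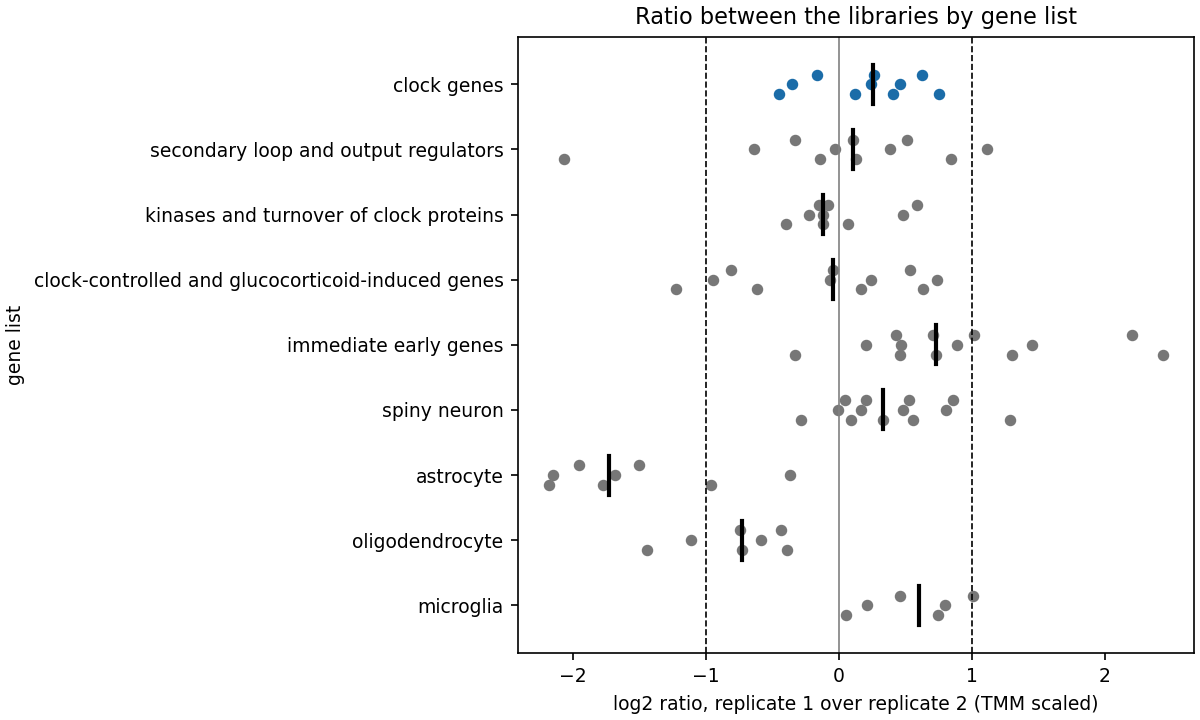
TMM-scaled log2 ratio of replicate 1 over replicate 2 for the detected genes of 9 lists, 1 point per gene, with the list median as a black bar and dashed lines at a 2-fold ratio. Clock genes and the kinase and turnover genes lie inside the dashed lines, and 17.4% of all detected genes were called at 2-fold or more. Astrocyte markers have a median of -1.73 and immediate early genes of 0.73.

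Of 9 markers of the suprachiasmatic nucleus, the brain's central clock, 0 reached 1 CPM in both libraries. In replicate 2 Prokr2, a receptor gene, was above that line, and in replicate 1 Prok2, the gene of its ligand, was. In contrast, the peptide genes Vip, Avp and Grp and the transcription factor gene Six6 had 0 reads in both, where 3 reads would be 0.116 CPM in replicate 1 and 0.101 CPM in replicate 2. Prokr2 was at 0.852 and 8.49 CPM and Prok2 at 1.55 and 0.981 CPM. In sum these markers reached 2.98 CPM in replicate 1 and 10.1 CPM in replicate 2.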

How the data were processed

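Per the labels' protocols, tagged polysomes were pulled down from homogenised ventral striatum with monoclonal anti-EGFP antibodies on beads, and their RNA was purified. The authors deposited whole read counts for each gene symbol, not normalised. STAR 2.0.0e, HTSeq and the build mm10 are named, per the submitters' processing notes; the annotation, strand setting and read filters were not given in the sources used here. Left out were 6 lines with no gene: reads outside features made up 22.8% and 31.0% of all reads in replicates 1 and 2, reads with several alignments 27.9% and 13.6%, and ambiguous reads 1.84% and 2.08%.

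Counts were turned into CPM over named genes. Exon length (union of exons) and overlap came from GENCODE M21, matched by symbol: 11465 of 12374 detected genes (92.7%) had a length. TMM factors (edgeR 4.0.16, over detected genes) were 1.01 and 0.991. Tests, intervals and motif searches used Python 3.11.15 and scipy 1.17.1. The test was checked only on counts simulated with counting error alone, so the check does not cover other differences between libraries. Ratios of a gene under 1 CPM in either library were not tested. Ranges and medians of lists describe them, with no test of a list. The members and lists were chosen with earlier results of these data known. Besides the 10 members, genes were named by rule: Stard5 and Rpl10a, of each cell type list up to 2 with the highest mean CPM, and of each other list the up to 4 highest, the lowest detected, and those past the test where 5 or fewer. Genes named outside it are Tac1, Ier2 and the suprachiasmatic genes at 0 reads, and Sphk2, all chosen after their values were seen. No gene was named for a like pattern, since 2 libraries give none. A gene of the secondary loop list is not reported here.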

Additional observations from a re-analysis of the deposited data

How the results depend on the processing

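No paired analysis was possible because the series has 1 group. Leaving out a library ends the test between them, so that was run for levels, order and differences only. With TMM sizes or totals without Rn45s, all 10 members stayed at 1 CPM or more, and the levels of the members moved by less than their SD except Arntl without Rn45s (23.0 CPM). Of the 10 places in the order per kilobase, 5 held with no length, 7 with the longest transcript, and 6 to 7 in a library alone. Of 10 differences between members, 9 with the longest transcript and 8 with no length exceeded their SD, against 10 with the union of exons: Per3 minus Per2 was lost under both and Npas2 minus Clock with no length. With no length, Npas2 minus Clock reversed, to -0.43 log2 units. With the longest transcript and with no length, the others that moved were Npas2 minus Arntl (2.91 and 2.998), Clock minus Arntl (2.14 and 3.43), Cry2 minus Cry1 (0.62 and 1.01), Per1 minus Per3 (1.44 and 1.083), Per3 minus Per2 (-0.27 and -0.23), Dbp minus Bhlhe41 (-4.77 and -6.51), summed Per minus summed activators (-1.35 and -1.57) and summed Cry minus summed Per (0.90 and 0.36); by construction these settings change the length alone. Under plain totals, median-of-ratios factors, no filter, a filter at a mean of 5 CPM (which leaves 9 members) and removal of the length trend, 0 members passed the 2-fold test. Of all genes tested, 17.4%, 17.5%, 29.7%, 14.5% and 14.7% passed in these settings, in that order. Without a filter this was 5619 of 18929 genes with reads, against 2147 of 12374. With 48 and 32 reads, the level of Dbp carries the widest counting error among the members.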
